A study of Homo sapiens and Mus musculus with 57 samples.

Results

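The tumour necrosis factor (TNF) superfamily genes with numbered symbols were taken from the human files as every gene name made of TNFSF or TNFRSF, a number and at most a few letters. This gave 32 genes of the 30373 listed, 11 of them ligand genes (TNFSF) and 21 receptor genes (TNFRSF). Levels are given as CPM, read counts scaled to the size of the library, and a group mean of at least 1 CPM was reached by 27 of the 32. The others, TNFSF8, TNFRSF4, TNFRSF8, TNFRSF13B and TNFRSF17, stayed below 1 CPM in every group, and no member was listed at 0 in every library. Superfamily members with other symbols (TNF, FAS, CD40 and the like) are described at the end, as part of the pathway.

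The superfamily ligands are mostly trimeric membrane proteins that can be shed from the cell, and each binds one or a few receptors with cysteine-rich repeats. Receptors with a death domain recruit adaptors that can activate caspases. Receptors without one recruit TRAF proteins, which lead to the kinases that release NF-kB. Decoy receptors bind a ligand without passing the signal on. In carcinoma and leukaemia cells the family is known for apoptosis induced by TRAIL, for inflammatory signalling through the TNF receptors, and for ligands that costimulate T cells.

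RNA-seq was measured in 33 human libraries, in 11 groups of 3. Cells of 4 established lines received 1 uM TAK-981 for 16 h or DMSO as the vehicle for 16 h. THP-1 is a monocytic leukaemia line, HCT116 and Colo205 are colorectal carcinoma lines, and MDA-MB-231 is a breast carcinoma line. A second inhibitor, ML-792 at 1 uM for 16 h, was given to the 3 carcinoma lines, where both inhibitors share the DMSO libraries of the line. TAK-981 and ML-792 inhibit the SUMO-activating enzyme, which starts the attachment of the small protein SUMO to other proteins. The comparisons addressed how each inhibitor changed the transcripts, and each line stands for itself. The wells of a group are not labelled as separate cultures, so p-values speak only of the spread among these wells, possibly technical.

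Promoter sequences are shown for the ligand gene and the receptor gene that were called higher most often (TNFSF9 and TNFRSF1B) and for 2 ligand genes that fell (TNFSF4 and TNFSF18). Each holds the 250 bases before and the 50 bases after the annotated start in RefSeq (GRCh38.p14), written 5′ to 3′ on the gene's own strand. They lie at chr19:6530776-6531075 and chr1:12166741-12167040 on the plus strand, and at chr1:173205483-173205782 and chr1:173050892-173051191 on the minus strand. Capitals mark GAAANNGAA, the core of the interferon-stimulated response element, on either strand.
TNFSF9: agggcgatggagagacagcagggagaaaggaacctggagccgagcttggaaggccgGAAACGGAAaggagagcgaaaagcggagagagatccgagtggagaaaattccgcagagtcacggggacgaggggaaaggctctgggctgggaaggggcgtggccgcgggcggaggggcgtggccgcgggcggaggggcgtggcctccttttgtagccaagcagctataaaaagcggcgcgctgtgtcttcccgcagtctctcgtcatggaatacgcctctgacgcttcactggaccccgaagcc
TNFRSF1B: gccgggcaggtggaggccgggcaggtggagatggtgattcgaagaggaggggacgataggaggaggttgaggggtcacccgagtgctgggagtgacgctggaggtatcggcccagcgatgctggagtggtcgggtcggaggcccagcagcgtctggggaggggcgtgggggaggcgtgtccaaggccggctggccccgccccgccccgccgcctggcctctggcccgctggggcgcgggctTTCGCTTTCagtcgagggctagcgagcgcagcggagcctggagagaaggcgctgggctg
TNFSF4: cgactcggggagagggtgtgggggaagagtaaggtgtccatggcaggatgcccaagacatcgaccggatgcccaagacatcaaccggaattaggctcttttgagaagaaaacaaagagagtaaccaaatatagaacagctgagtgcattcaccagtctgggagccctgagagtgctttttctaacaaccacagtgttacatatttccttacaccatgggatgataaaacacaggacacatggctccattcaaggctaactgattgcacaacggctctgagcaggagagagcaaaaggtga
TNFSF18: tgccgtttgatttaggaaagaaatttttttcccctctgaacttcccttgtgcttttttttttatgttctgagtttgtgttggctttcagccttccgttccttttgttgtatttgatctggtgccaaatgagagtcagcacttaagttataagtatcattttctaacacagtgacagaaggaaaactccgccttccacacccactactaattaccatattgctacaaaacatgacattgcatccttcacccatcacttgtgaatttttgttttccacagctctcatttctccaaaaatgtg

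Of the 32 members, 21 matched a promoter in the RefSeq table. The 11 without one were TNFSF8, TNFSF12, TNFRSF4, TNFRSF10A, TNFRSF10B, TNFRSF10C, TNFRSF10D, TNFRSF11B, TNFRSF12A, TNFRSF13C and TNFRSF17, and several of these are described below as called higher. The element core was found, on either strand, in 5 of these 21 (TNFSF9, TNFSF10, TNFSF13B, TNFSF14 and TNFRSF1B) and in 8.11% of all 35116 promoters of the same length. Counted from the annotated start, its first base lies at -194 in TNFSF9 and, on the opposite strand, at -9 in TNFRSF1B. A kB site, the NF-kB motif searched as GGGNNTTCC, was found in 4 of the 21 (TNFSF13, TNFRSF8, TNFRSF13B and TNFRSF25) and in 6.58% of all promoters. The AP-1 motif TGANTCA was found in 4 of the 21 (TNFSF14, TNFSF15, TNFRSF8 and TNFRSF9) and in 7.71% of all promoters. The promoters of TNFSF4 and TNFSF18 held none of the 3 motifs. A match is a stretch of letters and not a measured site.

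Libraries held 17336368 to 25807864 estimated counts and 16770 to 18131 detected genes. Of the markers checked, THP-1 cells with DMSO had 218 CPM of SPI1 and 1539 CPM of ELANE, Colo205 and HCT116 cells had 881 and 276 CPM of EPCAM, and MDA-MB-231 cells had 2637 CPM of VIM. The lists were not each confined to their own lines. Summed over 10 myeloid markers, a DMSO library held 3377 to 3475 CPM in THP-1 and 1606 to 1774 CPM in Colo205, where 3 of the 10 were at 0. In HCT116 and MDA-MB-231 with DMSO this sum stayed at or below 5.48 CPM. With DMSO, 6 mesenchymal markers summed to 5969 to 6506 CPM in MDA-MB-231, 606 to 677 in HCT116, 138 to 151 in THP-1 and 11.9 to 15.2 in Colo205. The 8 epithelial markers summed to 7149 to 7821 CPM in Colo205, 3707 to 4209 in HCT116, 1456 to 1541 in MDA-MB-231 and at most 2.01 in THP-1. For 4 fibroblast markers the sums were 27.5 to 37.9 CPM in HCT116, 15.6 to 21.7 in MDA-MB-231 and at most 1.54 in the other lines. The T cell markers CD3E, CD3D and CD2 were at or below 0.0837 CPM in every group mean. In THP-1 the mitochondrial share of counts was 15.5 ± 1.75% with TAK-981 and 7.38 ± 0.215% with DMSO (SD, n = 3 each). Replicate 1 of TAK-981 in HCT116 lay far from the rest of its line along principal component 2, with a score of 35.4, against -19.9 to 9.70 for the other 8 libraries. In Colo205, replicate 2 of ML-792 lay at -6.09 on that component, against 18.7 and 20.2 for the other ML-792 libraries. Counts of calls are therefore also given without these libraries.

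Before any treatment effect, the lines carried different sets of members. Levels of different genes are compared here as FPKM, which scales by length, in DMSO cells (mean ± SD, n = 3). In THP-1 the highest member was TNFRSF1A, the TNF receptor with a death domain, at 35.3 ± 3.23 FPKM, followed by TNFRSF1B, the TNF receptor without one, at 11.9 ± 0.932 FPKM. In Colo205 TNFRSF10B, a TRAIL receptor with a death domain, led with 54.4 ± 4.46 FPKM. In HCT116 TNFRSF6B, a soluble decoy receptor, was listed at 90.9 ± 18.2 FPKM and TNFRSF12A, the receptor of TWEAK, at 86.9 ± 14.1 FPKM. The spreads of these overlap, so their order is not resolved. In MDA-MB-231 TNFRSF12A led with 171 ± 11.9 FPKM.

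Several members were almost confined to 1 line. TNFSF14 (LIGHT) averaged 13.7 ± 0.898 CPM in THP-1 with DMSO, and no group of another line averaged above 0.0183 CPM. TNFSF11 (RANK ligand) averaged 2.81 ± 0.702 CPM there and was listed at 0 in every HCT116 and MDA-MB-231 library. TNFRSF18, the receptor of the GITR ligand, averaged 23.5 ± 3.90 CPM in HCT116, and no group of another line averaged above 0.812 CPM. TNFSF15 (TL1A) and TNFRSF19 (TROY) were highest in Colo205, at 36.4 ± 1.66 and 25.7 ± 1.65 CPM. TNFSF10, the gene of TRAIL, averaged 47.1 ± 2.36 CPM in MDA-MB-231, 11.8 ± 0.753 in Colo205, 8.08 ± 1.45 in THP-1 and 0.0936 ± 0.122 in HCT116. TNFRSF1A was high in all 4 lines, and no difference in it was called between THP-1 and HCT116 or Colo205 (adjusted p = 0.353 and 0.131). In 1 fit of all 33 libraries, 142 of 162 contrasts of a member between lines with DMSO were called at an adjusted p under 0.05, and 81.1% of such contrasts over all genes were.

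**Figure D1:**
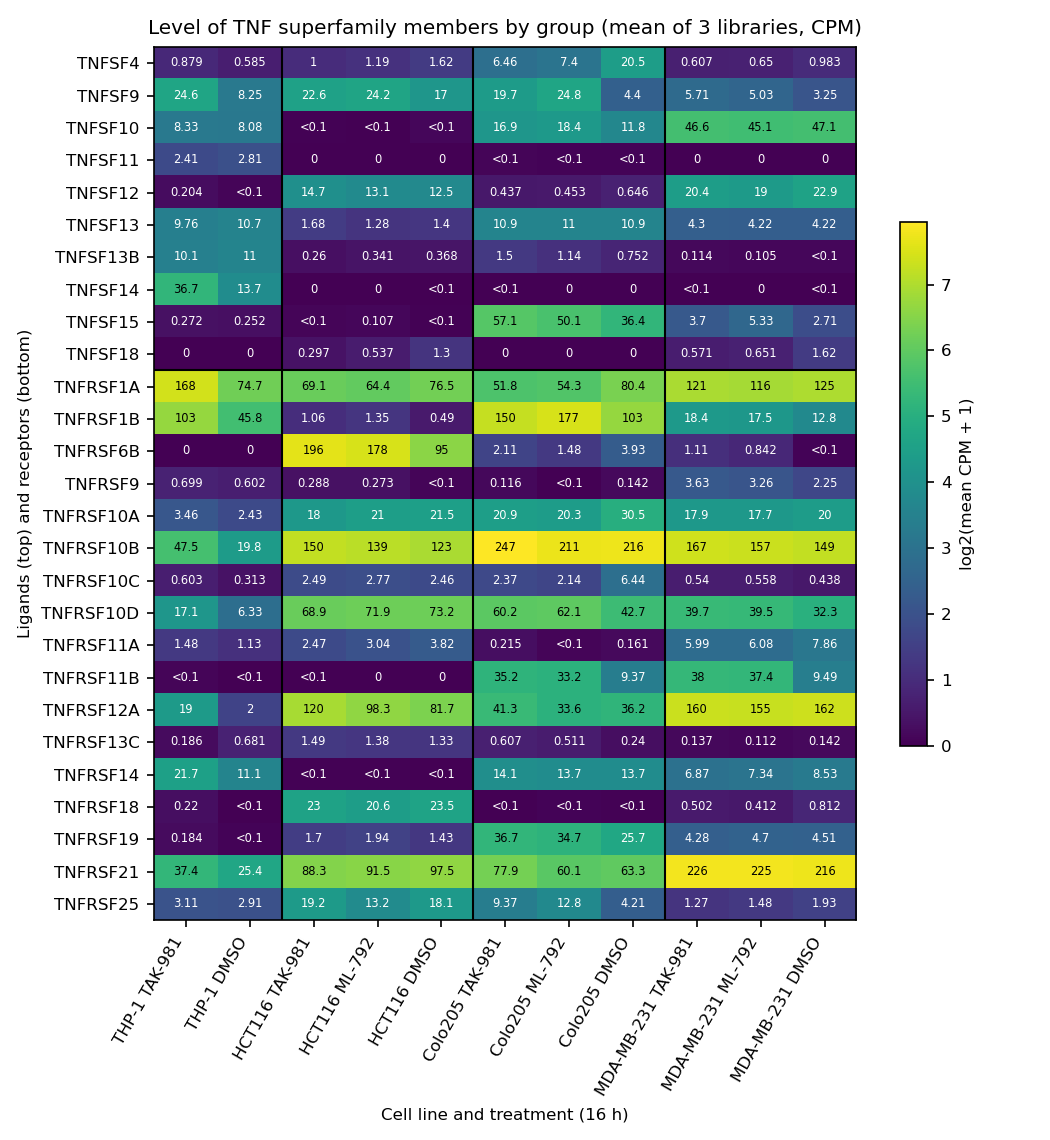
Mean CPM (numbers) and log2(mean CPM + 1) (colour) of the 27 members with at least 1 CPM in a group, ligands above and receptors below, in the 11 groups of 3 libraries. TNFSF14 and TNFSF11 are near 0 outside THP-1, TNFRSF18 is near 0 outside HCT116, and TNFRSF1A lies above 50 CPM in every group.

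Each inhibitor was compared with DMSO in each line by edgeR's quasi-likelihood test with Benjamini-Hochberg adjustment over all genes, and a gene was called at an adjusted p under 0.05. In bulk samples, more or fewer cells of a kind and more or less RNA per cell cannot be told apart. In THP-1, 18 members passed the filter on low counts, 10 rose with TAK-981 and 0 fell, while 35.5% of all genes tested were called higher and 33.9% lower. At an unadjusted p under 0.05 the count of members lower in THP-1 was also 0, while DESeq2, which tested more members of low count, gave 9 higher and 1 lower. In Colo205, 21 members were tested. With TAK-981, 9 rose and 4 fell (17.9% and 18% of all genes), and with ML-792, 8 rose and 4 fell (20.9% and 20.8%). In MDA-MB-231, 23 were tested. With TAK-981, 7 rose and 2 fell (10.6% and 9.52%), and with ML-792, 6 rose and 3 fell (11.6% and 11%). In HCT116, 19 were tested. With TAK-981, 4 rose and 2 fell (7.66% and 6.73%), and with ML-792, 3 rose and 2 fell (5.99% and 5.27%).

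Over the 7 comparisons, 47 of 144 member results were higher (32.6%) and 17 lower (11.8%), beside 15.8% and 15.1% of the results of all genes. The inhibitors share the DMSO libraries of each carcinoma line, so these results are not independent of each other. The median log2 fold change of the members tested was 0.57 in THP-1, against 0.03 over all genes, and 0.30 with TAK-981 in Colo205, against 0.00029 over all genes. It lay between -0.03 and 0.07 in the other 5 comparisons. As a description over the same comparisons, of the 27 members tested, 16 were called higher at least once and never lower, 5 lower and never higher, 2 both ways (TNFRSF1A and TNFRSF10A) and 4 never (TNFSF11, TNFSF13, TNFRSF13C and TNFRSF18). The HCT116 count for ML-792 was 5 and dropped to 2 when any 1 of DMSO replicates 2 and 3 or ML-792 replicates 1, 2 and 3 was left out. Without the library that stood apart, the HCT116 count for TAK-981 was 4 and not 6, and the Colo205 count for ML-792 was 14 and not 12.

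**Figure D2:**
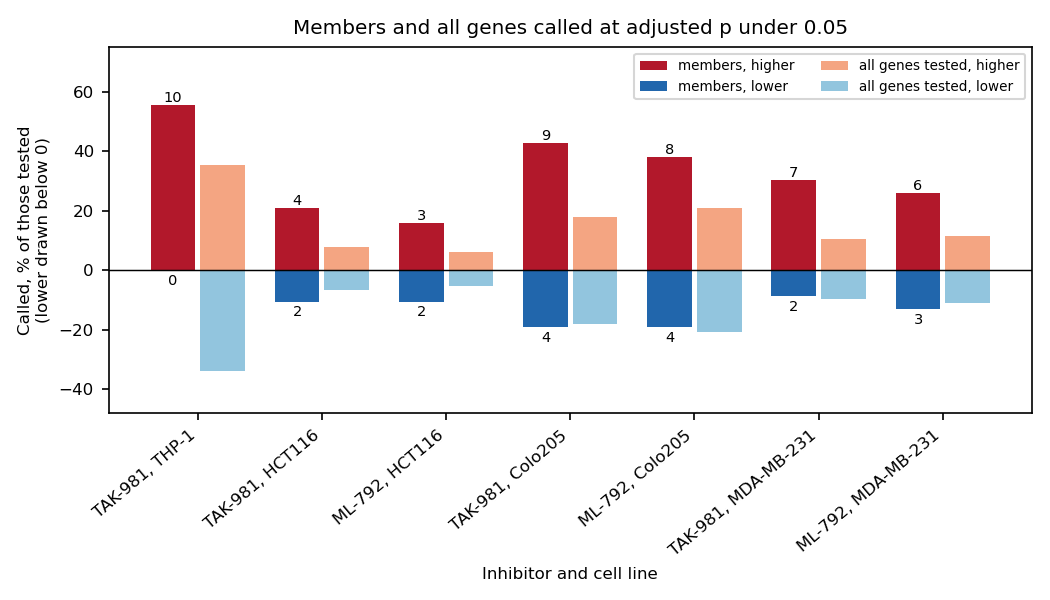
Share of the members tested (dark bars, with counts) and of all genes tested (light bars) called higher (above 0) or lower (below 0) in each comparison with DMSO. In THP-1 the members have 10 calls higher and 0 lower, and in each comparison more members were called higher than lower.

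**Figure D3:**
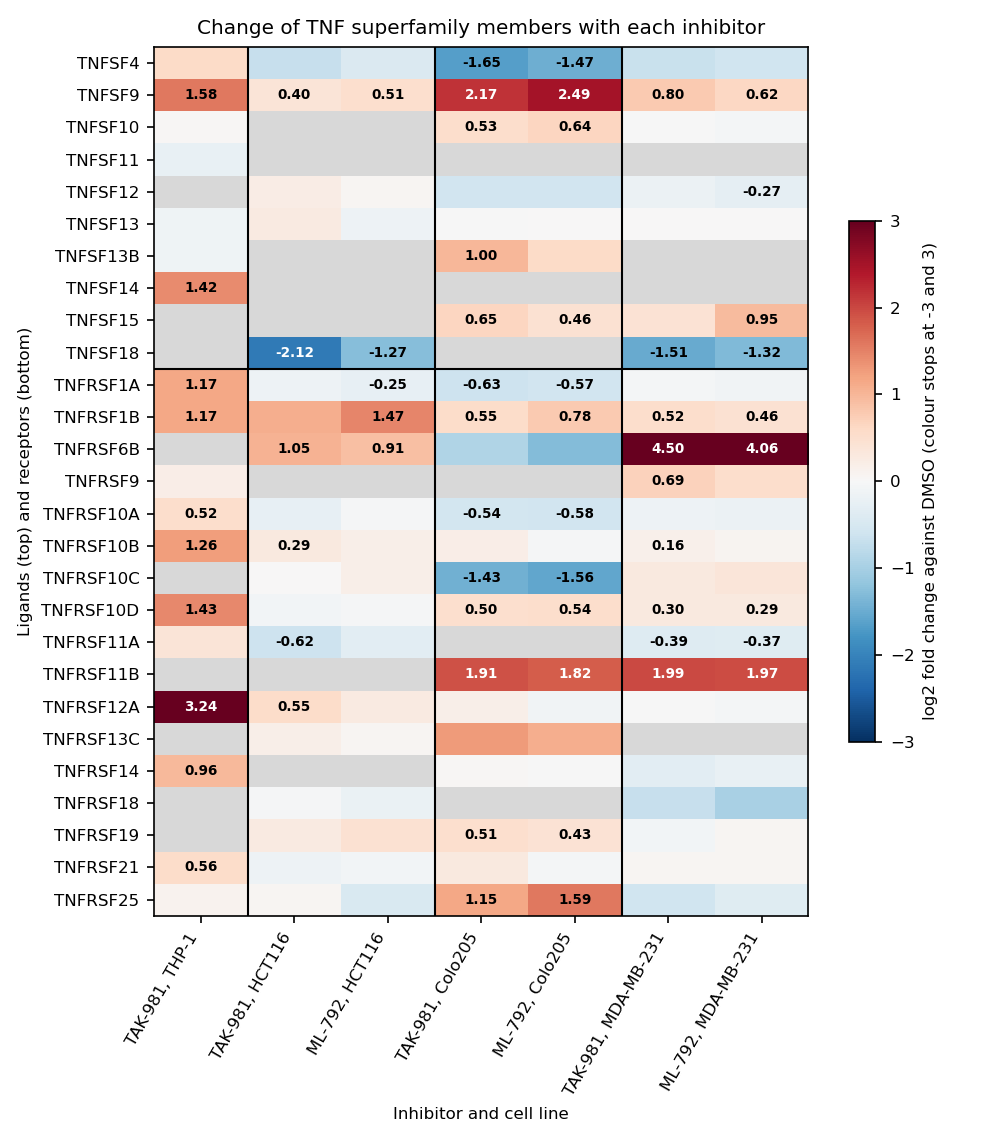
Log2 fold change of the 27 members with each inhibitor against DMSO, as colour, with the number printed where the change was called (adjusted p under 0.05). Grey marks members not tested in a line. TNFSF9 is called higher in all 7 columns, and TNFRSF6B in MDA-MB-231 rests on very few counts.

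TNFSF9, the ligand of the T cell costimulatory receptor CD137, was called higher in all 7 comparisons. In Colo205 it had 21.5, 19.3 and 18.4 CPM with TAK-981 and 31.8, 18.9 and 23.6 CPM with ML-792, against 4.30, 3.83 and 5.06 CPM with DMSO. In THP-1 it had 24.9, 24.7 and 24.3 CPM with TAK-981, against 7.93, 8.12 and 8.70 CPM with DMSO. Every treated library of these lines was above every DMSO library. The log2 fold changes were 2.17 ± 0.18 (SE, adjusted p = 8.2e-07) with TAK-981 and 2.49 ± 0.18 (adjusted p = 1.91e-07) with ML-792 in Colo205, and 1.58 ± 0.09 (adjusted p = 2.73e-09) in THP-1. In MDA-MB-231 TNFSF9 had 6.55, 5.10 and 5.48 CPM with TAK-981 and 4.93, 4.88 and 5.29 CPM with ML-792, against 3.20, 2.66 and 3.89 CPM with DMSO, a smaller rise of 0.80 ± 0.15 (adjusted p = 0.00136) and 0.62 ± 0.15 (adjusted p = 0.00785). In HCT116, where DMSO libraries held the most, it had 26.6, 19.3 and 21.8 CPM with TAK-981 and 25.5, 23.3 and 23.9 CPM with ML-792, against 15.2, 16.5 and 19.4 CPM with DMSO. The TAK-981 and DMSO values of HCT116 overlapped by 1 library, and the changes were 0.40 (adjusted p = 0.0359) and 0.51 (adjusted p = 0.0126). The HCT116 calls depended on single libraries. The TAK-981 call was lost in 8 of 15 alternatives, among them leaving out DMSO replicate 1 or 2 (adjusted p = 0.137 and 0.106) or TAK-981 replicate 1 or 3 (0.115 and 0.0531). The ML-792 call was lost without DMSO replicate 2 or ML-792 replicate 1 (adjusted p = 0.0522 and 0.0504). Its receptor gene TNFRSF9 was low throughout, with a highest group mean of 3.63 ± 0.283 CPM, in MDA-MB-231 with TAK-981. There it had 3.48, 3.46 and 3.96 CPM, against 2.18, 2.10 and 2.45 CPM with DMSO, a change of 0.69 ± 0.19 (adjusted p = 0.0198) whose call was lost in 4 of 15 alternatives.

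The ligand genes TNFSF4 and TNFSF18 were the ones that fell most. TNFSF4, the ligand of the costimulatory receptor OX40, had 7.10, 4.503 and 7.76 CPM in Colo205 with TAK-981 and 7.61, 6.77 and 7.83 CPM with ML-792, against 22.2, 17.2 and 22.1 CPM with DMSO. The groups stood well apart, and the log2 fold changes were -1.65 ± 0.16 (adjusted p = 2.65e-06) and -1.47 ± 0.15 (adjusted p = 7.09e-06). In the other lines no group averaged above 1.62 CPM of TNFSF4 and no change was called. TNFSF18, the GITR ligand, was tested in HCT116 and MDA-MB-231 and fell with both inhibitors in both, at levels near 1 CPM. In HCT116 it had 4, 5 and 9 counts with TAK-981 and 12, 10 and 9 counts with ML-792, against 29, 21 and 30 counts with DMSO. As CPM these were 0.223, 0.206 and 0.463 with TAK-981 and 0.660, 0.512 and 0.440 with ML-792, against 1.48, 1.02 and 1.39 with DMSO, changes of -2.12 ± 0.36 (adjusted p = 0.00165) and -1.27 ± 0.33 (adjusted p = 0.0243). The ML-792 call was lost without DMSO replicate 1, DMSO replicate 3, ML-792 replicate 2 or ML-792 replicate 3. In MDA-MB-231 it had 0.819, 0.488 and 0.406 CPM with TAK-981 and 0.580, 0.5852 and 0.789 CPM with ML-792, against 1.35, 1.73 and 1.79 CPM with DMSO, changes of -1.51 ± 0.30 (adjusted p = 0.00174) and -1.32 ± 0.28 (adjusted p = 0.00321). In both lines the treated and DMSO values did not overlap.

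Other ligand genes rose in 1 or 2 of the lines. TNFSF14 (LIGHT), which binds TNFRSF14 and the lymphotoxin beta receptor, had 34.5, 38.1 and 37.6 CPM in THP-1 with TAK-981, against 14.6, 13.7 and 12.8 CPM with DMSO, a log2 fold change of 1.42 ± 0.09 (adjusted p = 4.28e-09). TNFSF15 (TL1A), the ligand of TNFRSF25, had 60.4, 51.0 and 59.8 CPM in Colo205 with TAK-981 and 49.0, 52.1 and 49.3 CPM with ML-792, against 35.8, 38.3 and 35.1 CPM with DMSO. These were rises of 0.65 ± 0.07 (adjusted p = 7.48e-06) and 0.46 ± 0.07 (adjusted p = 0.000146), with no overlap. In MDA-MB-231 TNFSF15 had 6.38, 4.45 and 5.15 CPM with ML-792, against 2.88, 1.59 and 3.66 CPM with DMSO, and rose by 0.95 ± 0.22 (adjusted p = 0.00597), while with TAK-981 its change of 0.42 ± 0.24 was not called (adjusted p = 0.236). TNFSF10 (TRAIL) had 18.8, 16.7 and 15.2 CPM in Colo205 with TAK-981 and 17.8, 17.1 and 20.2 CPM with ML-792, against 11.9, 10.97 and 12.5 CPM with DMSO, and rose by 0.53 ± 0.10 (adjusted p = 0.000966) and 0.64 ± 0.10 (adjusted p = 0.000175). In MDA-MB-231, the line with the most TNFSF10, and in THP-1 no change was called, with 95% intervals of -0.14 to 0.11 and -0.27 to 0.36 for TAK-981. TNFSF13B (BAFF), a B cell survival factor, had 1.995, 1.37 and 1.12 CPM in Colo205 with TAK-981, against 1.08, 0.646 and 0.536 CPM with DMSO. Its change of 1.00 ± 0.33 (adjusted p = 0.0272) lost the call with DESeq2 and without DMSO replicate 2, DMSO replicate 3 or TAK-981 replicate 1.

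TNFSF12 (TWEAK) and TNFSF13 (APRIL) are neighbours joined by an annotated read-through gene, so counts of these genes are uncertain. TNFSF13, which binds receptors of plasma cells, was not called in any of 7 comparisons, and its group means ranged from 1.28 CPM in HCT116 with ML-792 to 11.01 CPM in Colo205 with ML-792. TNFSF12 fell in MDA-MB-231 with ML-792, where it had 19.7, 17.3 and 20.04 CPM, against 24.0, 22.0 and 22.8 CPM with DMSO (-0.27 ± 0.07, adjusted p = 0.0102). This call was lost without ML-792 replicate 2 (adjusted p = 0.0645). With the 3 genes summed, the change there was -0.22 (adjusted p = 0.0175). TNFSF11 was tested in THP-1 alone and had 2.52, 1.88 and 2.84 CPM with TAK-981, against 2.78, 3.52 and 2.12 CPM with DMSO, which overlapped.

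Among the receptors with a death domain, TNFRSF1A moved in opposite directions in THP-1 and Colo205. In THP-1 it had 155, 173 and 176 CPM with TAK-981, against 69.1, 73.9 and 81.2 CPM with DMSO, and rose by 1.17 ± 0.08 (adjusted p = 9.89e-09). In Colo205 it had 52.9, 50.5 and 52.1 CPM with TAK-981 and 58.8, 53.1 and 50.9 CPM with ML-792, against 86.7, 76.3 and 78.2 CPM with DMSO, and fell, with log2 fold changes of -0.63 ± 0.06 (adjusted p = 5.08e-06) and -0.57 ± 0.06 (adjusted p = 1.36e-05). In HCT116 a smaller fall was called for ML-792 (-0.25 ± 0.07, adjusted p = 0.0342), a call lost without any 1 of DMSO replicates 2 and 3 and the ML-792 replicates (adjusted p = 0.0847 to 0.167), and the TAK-981 change of -0.15 ± 0.07 was not called (adjusted p = 0.177). The difference between THP-1 and Colo205 was tested in 1 fit and was 1.87 ± 0.09 on the log2 scale (adjusted p = 1.19e-17).

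The TRAIL receptors are encoded by TNFRSF10A and TNFRSF10B, which carry death domains, and by TNFRSF10C and TNFRSF10D, which act as decoys. These 4 genes are closely related, so reads may be shared among them. The counts of TNFRSF10C were not whole numbers in any of the 33 libraries. Those of TNFRSF10A and TNFRSF10D were whole in every library, and those of TNFRSF10B were not whole in 8, by a part of 1.59e-06%. Exons of AC107959.4 and AC107959.5 overlap TNFRSF10C on the same strand. The source of its fractions was not tested. TNFRSF10B had 45.0, 51.4 and 46.1 CPM in THP-1 with TAK-981, against 21.2, 18.3 and 19.997 CPM with DMSO, a rise of 1.26 ± 0.09 (adjusted p = 1.23e-08). TNFRSF10D had 17.0, 16.0 and 18.3 CPM with TAK-981, against 6.15, 6.02 and 6.82 CPM with DMSO, a rise of 1.43 ± 0.11 (adjusted p = 4.01e-08). Both the signalling and the decoy receptor were thus higher in every treated THP-1 library. TNFRSF10A rose less there, by 0.52 ± 0.20 (adjusted p = 0.0296), at 3.46 CPM with TAK-981 and 2.43 CPM with DMSO, and lost the call with DESeq2 (adjusted p = 0.126) and when any 1 library other than TAK-981 replicate 2 was left out (0.0654 to 0.137). An exon of RHOBTB2 overlaps TNFRSF10B on the other strand, and its count row was also called higher in THP-1, by 0.46 on the log2 scale. In Colo205 TNFRSF10C had 2.55, 2.03 and 2.54 CPM with TAK-981 and 1.69, 3.03 and 1.70 CPM with ML-792, against 6.05, 7.24 and 6.04 CPM with DMSO. It fell there, with log2 fold changes of -1.43 ± 0.20 (adjusted p = 0.000102) and -1.56 ± 0.21 (adjusted p = 5.29e-05).

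In Colo205 TNFRSF10A fell with both inhibitors (-0.54 and -0.58, adjusted p = 4.96e-05 and 2.65e-05), and TNFRSF10D rose (0.50 and 0.54, adjusted p = 0.000166 and 7.99e-05). TNFRSF10B was not called there with either inhibitor. In a fit with the replicate number as a block, its TAK-981 change of 0.20 was called (adjusted p = 0.0147). TNFRSF10B had 234, 265 and 242 CPM with TAK-981 and 176, 262 and 195 CPM with ML-792, against 208, 234 and 206 CPM with DMSO. The ML-792 values spanned the DMSO values. In MDA-MB-231 TNFRSF10D rose by 0.30 with TAK-981 and 0.29 with ML-792 (adjusted p = 0.00159 and 0.00177). TNFRSF10B rose by 0.16 with TAK-981 in MDA-MB-231 and by 0.29 with TAK-981 in HCT116 (adjusted p = 0.00833 and 0.0151), changes of under 1.5-fold. Both calls were lost without replicate 2 of TAK-981 in the line (adjusted p = 0.0557 and 0.0676). TNFRSF21 (DR6), another death domain receptor, rose in THP-1, with TAK-981 at 39.5, 36.8 and 35.8 CPM, against 26.9, 26.2 and 23.1 CPM with DMSO (0.56 ± 0.08, adjusted p = 3.31e-05). TNFRSF25 (DR3), the receptor of TL1A, had 11.8, 7.96 and 8.30 CPM in Colo205 with TAK-981 and 14.2, 10.9 and 13.3 CPM with ML-792, against 3.89, 4.75 and 3.99 CPM with DMSO. Its rises were 1.15 ± 0.17 (adjusted p = 0.000137) and 1.59 ± 0.17 (adjusted p = 6.51e-06). Exons of PLEKHG5 overlap TNFRSF25 on the same strand, and PLEKHG5 was also called higher there, with 39.3 CPM with TAK-981 and 41.7 CPM with ML-792, against 21.8 CPM with DMSO.

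TNFRSF1B, the TNF receptor that signals through TRAF proteins, was called higher in 6 of 7 comparisons. In THP-1 it had 97.0, 105 and 107 CPM with TAK-981, against 43.1, 45.3 and 49.1 CPM with DMSO, a rise of 1.17 ± 0.07 (adjusted p = 5.85e-09). In Colo205 it had 158, 142 and 151 CPM with TAK-981 and 203, 154 and 173 CPM with ML-792, against 114, 95.4 and 99.6 CPM with DMSO, rises of 0.55 ± 0.09 (adjusted p = 0.000349) and 0.78 ± 0.09 (adjusted p = 1.64e-05). No treated library overlapped a DMSO library in either line. In MDA-MB-231 it had 17.9, 18.3 and 18.9 CPM with TAK-981 and 17.2, 18.6 and 16.7 CPM with ML-792, against 12.9, 12.7 and 12.7 CPM with DMSO, rises of 0.52 ± 0.07 (adjusted p = 4.82e-05) and 0.46 ± 0.07 (adjusted p = 0.000166). In HCT116 the gene was near the limit of detection, with 22, 16 and 25 counts with TAK-981 and 24, 25 and 30 counts with ML-792, against 16, 2 and 12 counts with DMSO. As CPM these were 1.23, 0.658 and 1.29 with TAK-981 and 1.32, 1.28 and 1.47 with ML-792, against 0.815, 0.0969 and 0.557 with DMSO. The ML-792 change of 1.47 ± 0.45 was called (adjusted p = 0.0483) and lost its call in 8 of 15 alternatives, among them leaving out any 1 of DMSO replicates 2 and 3 and the ML-792 replicates. The TAK-981 change of 1.08 ± 0.46 was not called (adjusted p = 0.135).

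TNFRSF12A (Fn14), the receptor of TWEAK, had the largest change of the members in THP-1. It had 18.9, 18.6 and 19.4 CPM with TAK-981, against 2.01, 1.87 and 2.12 CPM with DMSO, a 9.46-fold rise (3.24 ± 0.12 on the log2 scale, adjusted p = 6.82e-11). It remained below the carcinoma lines, whose group means ran from 33.6 CPM in Colo205 with ML-792 to 162 CPM in MDA-MB-231 with DMSO. CLDN6, whose exon overlaps TNFRSF12A on the other strand, averaged 0.0669 CPM with TAK-981 and 0 CPM with DMSO in THP-1. In HCT116 TNFRSF12A had 128, 121 and 112 CPM with TAK-981, against 67.2, 89.2 and 88.8 CPM with DMSO (0.55 ± 0.11, adjusted p = 0.00401), and the ML-792 change of 0.27 ± 0.11 was not called (adjusted p = 0.136). TNFRSF14 (HVEM), a receptor of LIGHT, had 20.7, 23.6 and 21.0 CPM in THP-1 with TAK-981, against 10.5, 10.3 and 12.6 CPM with DMSO, a rise of 0.96 ± 0.10 (adjusted p = 1.5e-06). TNFSF14 and its receptor gene TNFRSF14 were thus both called higher in THP-1, while in Colo205 TNFRSF14 was not called and TNFSF14 was near 0.

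Beside the THP-1 rises stands the higher mitochondrial share of the treated libraries given above. Of the 10 myeloid markers, 4 were called higher and 4 lower in THP-1, beside 35.5% and 33.9% of all genes. LYZ averaged 341 CPM with TAK-981 and 1211 CPM with DMSO, ELANE 559.7 CPM with TAK-981 and 1539 CPM with DMSO, and CD14 7.89 CPM with TAK-981 and 1.49 CPM with DMSO. Summed over the list, a library held 1687 to 1789 CPM with TAK-981 and 3377 to 3475 CPM with DMSO. Of 4 fibroblast markers, 2 were tested and both were called higher at low levels, COL1A1 with 3.37 CPM with TAK-981 and 0.914 CPM with DMSO, and PDGFRA with 0.737 CPM with TAK-981 and 0.214 CPM with DMSO. COL1A2 was listed at 0 in every THP-1 library, and the list summed to 3.19 to 4.97 CPM with TAK-981 and 1.02 to 1.24 CPM with DMSO. Of 5 mesenchymal markers tested, 3 were lower and 1 higher, and the list summed to 83.9 to 90.8 CPM with TAK-981 and 138 to 151 CPM with DMSO. CAV1 had 1.201 CPM with TAK-981 and 15.6 CPM with DMSO. The part of these shifts in the members' values was not tested. Scaling by library totals alone, without TMM, moved the median log2 fold change of all THP-1 genes to 0.26, against 0.03 with TMM, and gave 11 members higher and 0 lower.

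Markers also moved in the carcinoma lines. In Colo205, 8 epithelial markers were tested, of which 4 rose and 0 fell with TAK-981, while 6 rose and 0 fell with ML-792. Of all Colo205 genes, 17.9% were called higher and 18% lower with TAK-981, and 20.9% and 20.8% with ML-792. CDX2 had 3.89 CPM with TAK-981 and 3.13 CPM with ML-792, against 0.698 CPM with DMSO, and KRT20 had 10.4 CPM with TAK-981 and 10.2 CPM with ML-792, against 2.71 CPM with DMSO. The whole list summed to 7915 to 8015 CPM with TAK-981 and 7995 to 8927 CPM with ML-792, against 7149 to 7821 CPM with DMSO. In MDA-MB-231, 3 of 5 epithelial markers tested were lower and 1 higher with each inhibitor. Of all MDA-MB-231 genes, 9.52% were called lower and 10.6% higher with TAK-981, and 11% and 11.6% with ML-792. The epithelial list summed there to 1178 to 1230.2 CPM with TAK-981 and 1156 to 1193 CPM with ML-792, against 1456 to 1541 CPM with DMSO. In HCT116, KRT19 alone of 7 epithelial markers was called, higher with TAK-981 (1069 CPM, against 876 CPM with DMSO). Of all HCT116 genes, 7.66% were called higher and 6.73% lower with TAK-981, and 5.99% and 5.27% with ML-792. The part of these markers in the members' values was not tested.

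TNFRSF11B (osteoprotegerin), a secreted decoy receptor for RANK ligand and TRAIL, had nearly the same values in Colo205 and MDA-MB-231. In Colo205 it had 34.2, 36.2 and 35.3 CPM with TAK-981 and 32.8, 31.4 and 35.6 CPM with ML-792, against 8.91, 9.50 and 9.69 CPM with DMSO. In MDA-MB-231 it had 39.9, 35.5 and 38.5 CPM with TAK-981 and 38.4, 36.6 and 37.2 CPM with ML-792, against 9.19, 8.04 and 11.2 CPM with DMSO. Every treated library was thus at least 2 times as high as every DMSO library of its line. The log2 fold changes were 1.91 ± 0.07 and 1.82 ± 0.07 in Colo205 (adjusted p = 2.58e-10 and 5.42e-10) and 1.99 ± 0.09 and 1.97 ± 0.09 in MDA-MB-231 (adjusted p = 2.36e-10 and 2.55e-10). The DMSO levels of these lines differed by -0.02 ± 0.12 (Colo205 minus MDA-MB-231, log2, adjusted p = 0.873). In THP-1 and HCT116 no group averaged above 0.0814 CPM and the gene was not tested. TNFRSF11A, the signalling receptor of RANK ligand, fell in MDA-MB-231, with 6.09, 6.65 and 5.23 CPM with TAK-981 and 6.14, 5.38 and 6.73 CPM with ML-792, against 7.05, 8.93 and 7.59 CPM with DMSO (-0.39 and -0.37, adjusted p = 0.0416 and 0.0418). These calls were lost in 8 of 15 alternatives with each inhibitor, among them DESeq2 and leaving out DMSO replicate 2 or 3, TAK-981 replicate 1 or 3, or ML-792 replicate 1 or 2 (adjusted p of 0.0689 to 0.177). In HCT116 it had 2.01, 2.43 and 2.98 CPM with TAK-981, against 4.38, 3.73 and 3.34 CPM with DMSO, and its change of -0.62 ± 0.18 (adjusted p = 0.036) lost the call in 8 of 15 alternatives, DESeq2 and leaving out DMSO replicate 1 or 2 or TAK-981 replicate 1 or 2 among them.

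TNFRSF6B (decoy receptor 3), a soluble receptor that binds FAS ligand, LIGHT and TL1A, shares its exons with the annotated read-through gene RTEL1-TNFRSF6B, and the files list both. In HCT116 TNFRSF6B had 198, 214 and 177 CPM with TAK-981 and 175, 199 and 161 CPM with ML-792, against 73.8, 105 and 106 CPM with DMSO, and all 6 treated libraries were higher than all 3 DMSO libraries. The changes were 1.05 ± 0.12 (adjusted p = 7.85e-05) and 0.91 ± 0.12 (adjusted p = 0.000293), and with both genes summed 0.79 (adjusted p = 0.000269) and 0.61 (adjusted p = 0.00231). In MDA-MB-231 the TNFRSF6B row held 27.2, 29.2 and 12.8 estimated counts with TAK-981 and 21.0, 9.17 and 25.3 with ML-792, against 0, 2.86 and 0 with DMSO. The rise was called with both inhibitors (adjusted p = 0.000443 with TAK-981 and 0.00146 for ML-792). The ratio of summed counts, scaled for depth, was 25.5 for TAK-981 (exact 95% interval 8.38 to 127) and 18.9 for ML-792 (6.14 to 94.3), and these intervals cover counting error only. With the read-through gene added, the changes were 0.035 (adjusted p = 0.798) and 0.10 (adjusted p = 0.377), so the calls in MDA-MB-231 held for the TNFRSF6B row alone and not for the sum. In Colo205 the summed genes fell by 0.32 with TAK-981 and 0.27 with ML-792 on the log2 scale (adjusted p = 0.0084 and 0.0181), while TNFRSF6B alone was not called. In a fit with the replicate number as a block, for which the numbers pair these libraries, the ML-792 change of TNFRSF6B alone in Colo205 was -1.50 ± 0.42 (adjusted p = 0.00779). The libraries disagreed: replicates 1, 2 and 3 held 5.27, 80.5 and 11.1 estimated counts with ML-792, against 101, 83.0 and 57.4 with DMSO. Replicate 2 of ML-792, the library that stood apart, thus hardly differed from its DMSO library.

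The remaining receptor genes changed little or were low. TNFRSF19 (TROY) rose in Colo205, with 38.0, 34.9 and 37.3 CPM with TAK-981 and 34.6, 34.8 and 34.6 CPM with ML-792, against 23.8, 26.7 and 26.7 CPM with DMSO (0.51 and 0.43, adjusted p = 2.64e-05 and 0.00012). TNFRSF18 (GITR) in HCT116 averaged 23.0 ± 3.35 CPM with TAK-981, 20.6 ± 1.12 CPM with ML-792 and 23.5 ± 3.90 CPM with DMSO, which overlapped, while its ligand gene TNFSF18 was called lower there. TNFRSF13C, the BAFF receptor of B cells, did not exceed 1.49 CPM in a group mean. It was tested in HCT116 and Colo205 and was not called against DMSO there without the replicate block. With the block, its TAK-981 change in Colo205 was 1.31 (adjusted p = 0.0266), from 12, 15 and 9 counts, against 3, 7 and 5 with DMSO.

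**Figure D4:**
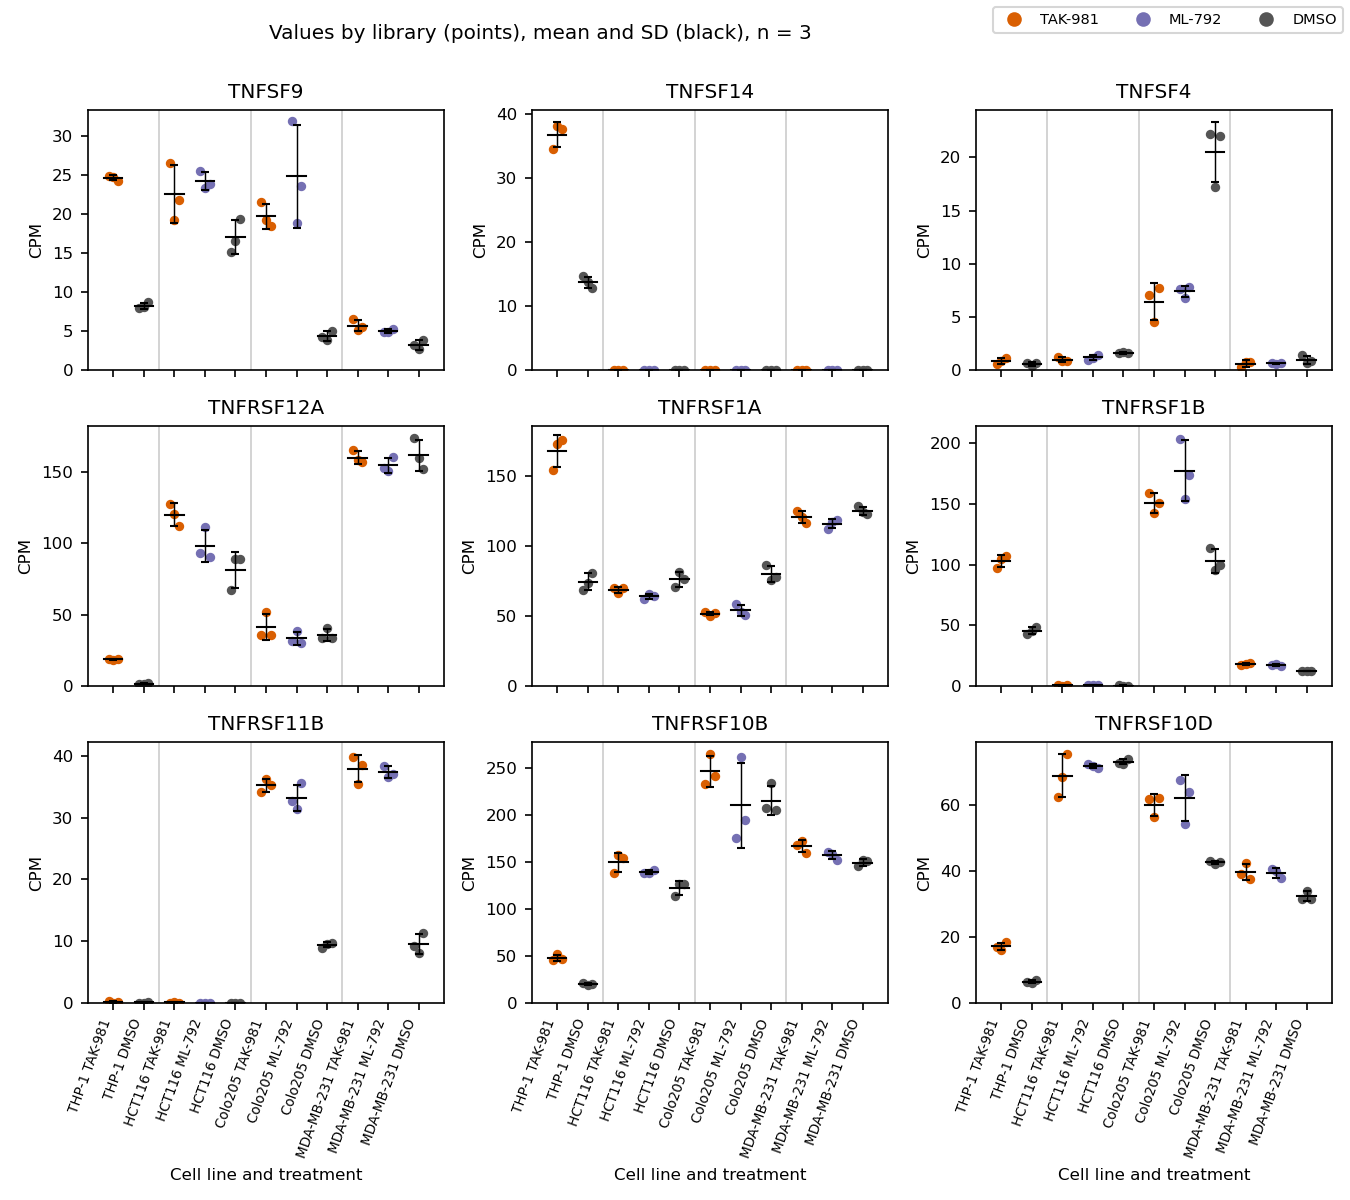
CPM of 9 members in each of the 33 libraries (points), with the group mean and SD in black (n = 3). Treated points of TNFSF9, TNFRSF1B and TNFRSF11B lie above the DMSO points in Colo205 and MDA-MB-231, TNFSF4 lies below them in Colo205, and TNFRSF1A lies above them in THP-1 and below them in Colo205.

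TAK-981 and ML-792 were compared directly at the same dose and time in 3 lines. No member was called in HCT116, Colo205 or MDA-MB-231 (0 of 19, 21 and 23 tested) by edgeR's quasi-likelihood test, and DESeq2 called 0 in each line too. Over all genes 0.0481% were called in HCT116, 0.00707% in Colo205 and 0.0215% in MDA-MB-231. At an unadjusted p under 0.05 the members were 2 in HCT116, 5 in Colo205 and 2 in MDA-MB-231. The 95% interval of the difference lay within 1.5-fold either way for 10 of 19 members in HCT116, 13 of 21 in Colo205 and 16 of 23 in MDA-MB-231, so larger differences are not excluded for the others. For TNFSF9 the log2 difference of TAK-981 minus ML-792, with its 95% interval, was -0.11 (-0.35 to 0.14) in HCT116, -0.32 (-0.64 to -0.0021) in Colo205 and 0.18 (-0.12 to 0.48) in MDA-MB-231. For TNFRSF11B it was 0.08 (-0.05 to 0.22) in Colo205 and 0.02 (-0.13 to 0.18) in MDA-MB-231. For TNFSF18 in HCT116 it was -0.85 (-1.76 to 0.05), which allows more than a 2-fold difference. For TNFSF15 in MDA-MB-231, called with ML-792 and not with TAK-981, it was -0.52 (-0.99 to -0.06) (adjusted p = 0.795).

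In Colo205 the libraries with the same replicate number deviated together, and a fit with the replicate number as a block gave another count. With the block, 4 members differed between the compounds, and 4.41% of all genes were called. TNFRSF21 was higher with TAK-981 by 0.37 (adjusted p = 0.00269), TNFRSF12A by 0.29 (adjusted p = 0.0123) and TNFRSF10B by 0.24 (adjusted p = 0.0347), on the log2 scale. TNFRSF1B was lower with TAK-981, at -0.23 (adjusted p = 0.0114). None of these differences reached 1.5-fold. Without replicate 2 of ML-792, the library that stood apart, 6 members were called in the fit without the block.

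**Figure D5:**
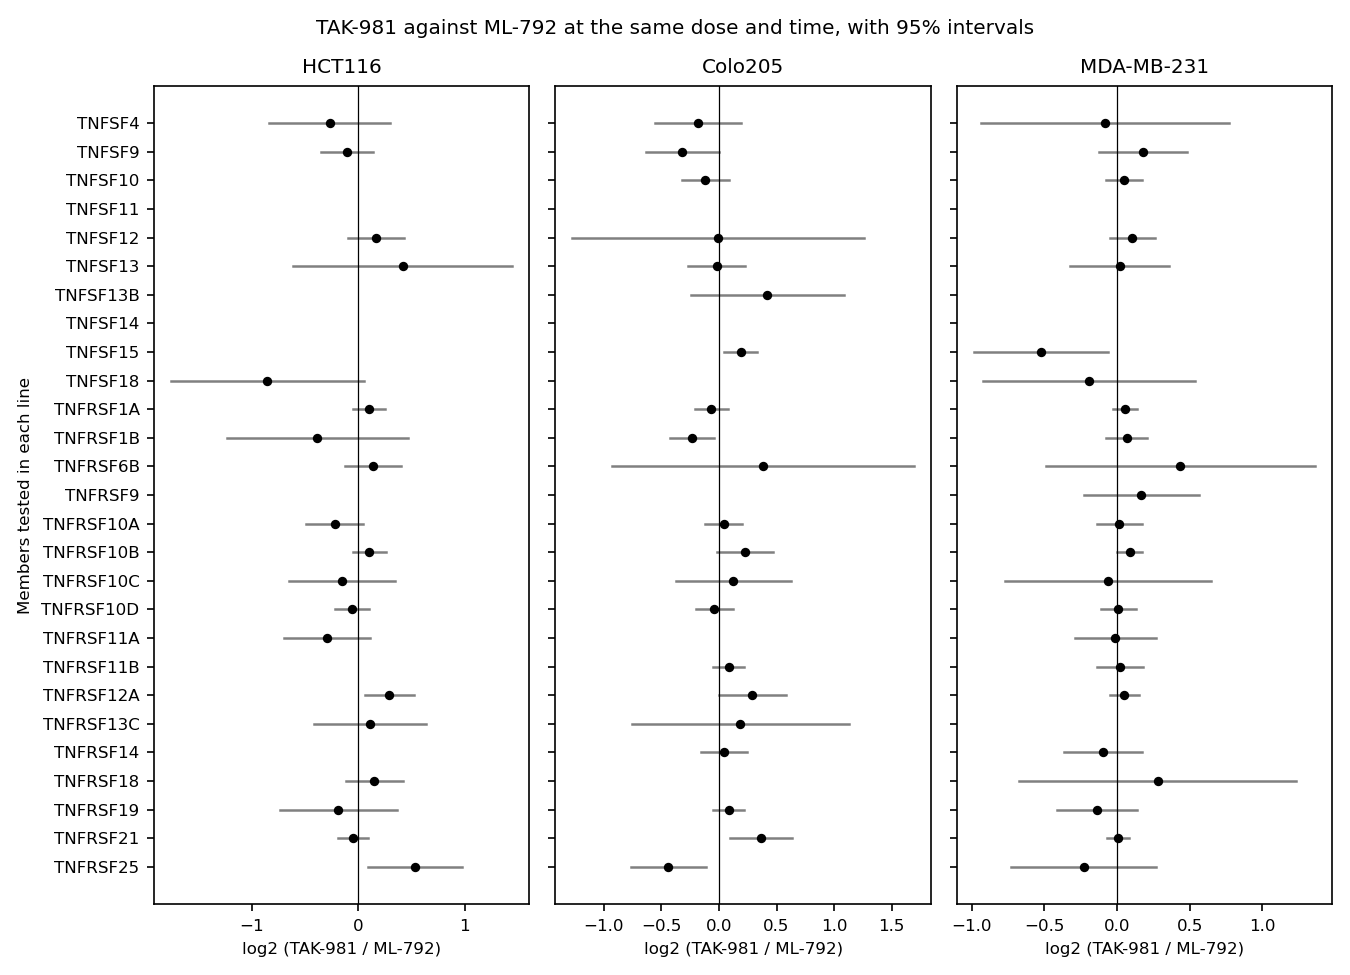
Log2 difference between TAK-981 and ML-792 (points) with its 95% interval (lines) for each member tested in HCT116, Colo205 and MDA-MB-231, without the replicate block. Most intervals cross 0, and TNFSF18 in HCT116 and TNFRSF6B in Colo205 are among the widest.

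Whether the response to TAK-981 differed between the 4 lines was tested as an interaction over all 33 libraries. It was called for 19 of 27 members, and for 59.3% of all genes. Over the 6 pairs of lines, 52 of 162 contrasts of a member were called, against 29.2% over all genes. The response of TNFRSF12A in THP-1 exceeded that in MDA-MB-231 by 3.34 ± 0.23 on the log2 scale (adjusted p = 3.27e-14). The response of TNFSF9 in HCT116 was below that in Colo205, with a difference of -1.77 ± 0.21 (adjusted p = 1.29e-07). For TNFRSF11B (adjusted p = 0.911) and TNFSF18 (adjusted p = 0.762) no difference between lines was called, and both are near 0 in the lines where they were not tested.

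Superfamily genes with other symbols and the signalling genes below them were counted in the same fits, and their lists were chosen with earlier results of these data known. In THP-1, 2 of 3 other ligand genes rose and 0 fell. TNF itself averaged 36.2 CPM with TAK-981 and 16.0 CPM with DMSO (1.18 ± 0.10, adjusted p = 8.04e-08), and CD70, the ligand of CD27, rose by 0.34 on the log2 scale. Of 5 other receptor genes, 4 rose. NGFR, the neurotrophin receptor p75, averaged 19.2 CPM with TAK-981 and 0.777 CPM with DMSO (4.61 ± 0.19, adjusted p = 1.4e-10). CD40, a receptor of antigen-presenting cells, averaged 23.6 CPM with TAK-981 and 3.84 CPM with DMSO (2.61 ± 0.13, adjusted p = 6.38e-10). LTBR, the lymphotoxin beta receptor, rose by 1.31 and RELT by 0.27. Both genes of the shedding proteases, ADAM10 and ADAM17, rose (0.37 and 0.70). These THP-1 counts stand beside 35.5% of all genes called higher and 33.9% lower. In the carcinoma lines 0 of these 2 proteases were called with TAK-981. With ML-792, 0 were called in HCT116, 1 fell in Colo205 (20.8% of all genes lower) and 1 rose in MDA-MB-231 (11.6% higher).

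Of 22 genes of TRAF and IKK signalling, 14 rose and 3 fell in THP-1. The largest changes among those with at least 5 CPM were in MAP3K14 (1.99), the kinase NIK of the noncanonical NF-kB route, TNFAIP3 (1.16), the deubiquitinase A20, TRAF1 (1.14), CYLD (0.89), TRAF4 (0.81) and TRAF6 (0.70). The list holds activators and inhibitors, and A20 and CYLD are known as inhibitors. Of 11 genes of death receptor signalling, 6 rose, among them CASP10 (0.85), RIPK1 (0.82) and CASP8 (0.70), and 2 fell, BID (-0.68) and DIABLO (-0.36). These counts stand beside the 35.5% and 33.9% of all THP-1 genes called higher and lower.

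In HCT116, 3 of the 22 TRAF and IKK genes rose and 1 fell with either inhibitor, beside 7.66% and 6.73% of all genes higher and lower with TAK-981 and 5.99% and 5.27% with ML-792. In Colo205, 4 rose and 2 fell with TAK-981 (17.9% and 18% of all genes) and 6 rose and 2 fell with ML-792 (20.9% and 20.8%). In MDA-MB-231, 4 rose and 3 fell with TAK-981 (10.6% and 9.52%) and 4 rose and 2 fell with ML-792 (11.6% and 11%). Whether these shares differ between lines was not tested. TNFAIP3 was called higher in all 7 comparisons. It averaged 16.4 CPM with TAK-981 and 14.99 CPM with ML-792, against 9.41 CPM with DMSO, in MDA-MB-231 (0.81 and 0.67). In HCT116 its changes were 0.61 and 0.85, and in Colo205 0.39 and 0.37. RBCK1, a subunit of the linear ubiquitin ligase, rose in HCT116 (0.83 with TAK-981 and 0.62 with ML-792). TRAF3, an inhibitor of the noncanonical route, fell in Colo205 (-0.46 and -0.50). Of the 11 death receptor signalling genes, 0 of 10 tested were called in HCT116 with either inhibitor by edgeR (3 with TAK-981 and 2 with ML-792 at an unadjusted p under 0.05), and at most 4 rose and 2 fell in a comparison of the other carcinoma lines.

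Among the other receptor genes, 2 of 6 rose and 0 fell with each inhibitor in HCT116, 1 of 4 rose and 2 fell with each in Colo205, and in MDA-MB-231 2 of 5 rose with each, 1 fell with TAK-981 and 0 with ML-792. Of all HCT116 genes, 7.66% were called higher and 6.73% lower with TAK-981, and 5.99% and 5.27% with ML-792. In Colo205 these shares were 17.9% and 18% with TAK-981 and 20.9% and 20.8% with ML-792. In MDA-MB-231 they were 10.6% and 9.52% with TAK-981 and 11.6% and 11% with ML-792. EDAR, the ectodysplasin receptor, fell in Colo205, to 29.8 CPM with TAK-981 and 28.8 CPM with ML-792, against 70.04 CPM with DMSO (-1.23 ± 0.06 and -1.28 ± 0.06, adjusted p = 6.4e-09 and 4.46e-09). LTBR also fell there (-0.24 and -0.22), and RELT rose (0.34 and 0.58). FAS, the death receptor of FAS ligand, rose in HCT116 (0.39 with TAK-981 and 0.44 with ML-792) as well as in MDA-MB-231 (0.43 and 0.50). NGFR rose in the same lines, by 0.82 and 0.90 in HCT116 and by 0.35 and 0.47 in MDA-MB-231. RELT fell in MDA-MB-231 with TAK-981, with 18.5 CPM, against 22.2 CPM with DMSO (-0.27, adjusted p = 0.0414), and its ML-792 change of -0.23 was not called (adjusted p = 0.0625). Of the 3 other ligand genes tested in Colo205, 2 rose and 0 fell with each inhibitor, beside the shares of all Colo205 genes just given. CD70 rose at low levels, with 1.796 CPM with TAK-981 and 1.59 CPM with ML-792, against 0.307 CPM with DMSO (2.53 and 2.35). EDA, the ligand of EDAR, rose with TAK-981, with 0.590 CPM, against 0.214 CPM with DMSO (1.47, adjusted p = 0.0464), and its ML-792 change of 1.07 was not called (adjusted p = 0.152). FASLG, the ligand of FAS, rose with ML-792, with 0.929 CPM, against 0.450 CPM with DMSO (1.03, adjusted p = 0.0135), and its TAK-981 change of 0.51 was not called (adjusted p = 0.257). These genes were named after their values were seen. No other ligand gene passed the filter in MDA-MB-231, and 0 of 2 were called in HCT116 by edgeR (1 at an unadjusted p under 0.05 with each inhibitor).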

How the data were processed

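Libraries of poly(A) RNA were made with a TruSeq kit and sequenced as paired ends, per the labels' protocols. Aligner, counting tool, genome build and use of strand were not given in the sources used here, so overlapping genes on opposite strands cannot be told apart. Each deposited file holds an estimated count and an FPKM value per gene, per the file headers. The estimated counts deposited by the authors are not normalized and not always whole: 11 members had a value that was not whole. FPKM, scaled by the authors for length and library, served for levels between genes and in alternatives.

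Each line was fitted alone, on counts rounded to whole numbers, with edgeR 4.0.16 under R 4.3.3. Genes were kept by filterByExpr, which asked for a count of 10 and a total of 15, libraries were scaled by TMM, and the quasi-likelihood F-test was used. Where a line had 3 groups, all of them entered its fit. P-values were adjusted over all genes by the Benjamini-Hochberg method and called under 0.05. Printed CPM values are scaled by TMM within a line, and log2 fold changes carry a standard error or a 95% interval. Levels and responses between lines came from 1 fit of all 33 libraries. Replicates were compared in 33 pairs, and none agreed within counting error (chi-square over its degrees of freedom was 2.18 to 20.1). The scripts were tested on simulated data. Mouse lines were not analysed here.

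The members, gene lists and tests were chosen with earlier results of these data known. Members called with a change of at least 1.5-fold, no overlap between groups and at least 1 CPM in the higher group are all given by library, and library values of some further members stand beside them. From the gene lists, up to 6 called genes with the largest change and at least 5 CPM were named per list and comparison. Of these, 1 gene is not reported here by name. Genes below 5 CPM, overlap partners and markers are named beside the result they touch.

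Replicate numbers are shared between groups in HCT116, Colo205 and MDA-MB-231. Deviations from the group means, over genes with at least 10 CPM, correlated above 0.1 in all 3 same-numbered pairs between TAK-981 and ML-792 in Colo205 (0.309, 0.404 and 0.378), between ML-792 and DMSO in Colo205 (0.486, 0.431 and 0.170) and between TAK-981 and DMSO in MDA-MB-231 (0.418, 0.390 and 0.202). For these pairs of groups a fit with the replicate number as a block was also run, and its value is given where it changed a call. All other printed changes, standard errors and adjusted p-values come from fits without the block, which do not use the pairing. Alternatives were RLE scaling, library totals only, no filter, limma 3.58.1 on log2(FPKM + 1) and log2(FPKM + 0.1), DESeq2 1.42.0, the replicate block, the compared groups only, leaving out each library, and, chosen after seeing the data, read-through genes summed with their partners.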

Additional observations from a re-analysis of the deposited data

Results flagged for a closer look

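The response to TAK-981 differed between lines for 17 members in a test of the difference itself, the interaction of treatment with line followed by pairs of lines in which the member was tested. The interaction alone was called for 19 of 27 members and for 59.3% of all genes. Of all contrasts of a gene between 2 lines, 29.2% were called, against 52 of 162 for the members. The share of all genes that meets both conditions of the 17 was not counted. Each value below is the largest called difference of a member, as the log2 fold change in the first line minus that in the second, with its SE. THP-1 exceeded MDA-MB-231 for TNFRSF12A (3.34 ± 0.23), TNFRSF14 (1.36 ± 0.18), TNFRSF10B (1.18 ± 0.14) and TNFRSF1B (0.73 ± 0.15). THP-1 exceeded Colo205 for TNFSF4 (2.31 ± 0.42), TNFRSF1A (1.87 ± 0.09) and TNFRSF10A (1.13 ± 0.20), and was below it for TNFSF13B (-1.06 ± 0.38). THP-1 exceeded HCT116 for TNFRSF10D (1.59 ± 0.12), TNFRSF11A (1.08 ± 0.31) and TNFRSF21 (0.77 ± 0.14).

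HCT116 was below Colo205 for TNFSF9 (-1.77 ± 0.21). Colo205 exceeded MDA-MB-231 for TNFRSF25 (1.77 ± 0.36), TNFRSF19 (0.60 ± 0.18) and TNFSF10 (0.55 ± 0.16), and was below it for TNFRSF10C (-1.71 ± 0.47) and TNFRSF6B (-5.40 ± 1.28). The TNFRSF6B value rests on the TNFRSF6B row without its read-through gene, which held 0, 2.86 and 0 counts in MDA-MB-231 with DMSO. TNFRSF10C was low in MDA-MB-231, with 0.540 CPM with TAK-981 and 0.438 CPM with DMSO. Its change there was not called (edgeR adjusted p = 0.624), and its counts were not whole in any of the 33 libraries. For TNFSF13B the interaction test gave an adjusted p of 0.0496, and Colo205 with DMSO held 21, 14 and 11 counts. Its Colo205 call with TAK-981 was lost in 4 of 15 alternatives. The HCT116 call of TNFRSF11A with TAK-981 was lost in 8 of 15, and the THP-1 call of TNFRSF10A in 6 of 13. The mitochondrial share of the treated THP-1 libraries stands beside each THP-1 difference, and its part was not tested.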

How the results depend on the processing

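The 38 member results called with at least 1.5-fold, no overlap and at least 1 CPM were recomputed under each alternative. Of their 551 values, 522 kept their direction and call, 29 lost the call and 0 reversed. The lost calls belonged to 6 results: TNFRSF11A with TAK-981 in HCT116 (8 of 15 alternatives, adjusted p = 0.0558 to 0.124), TNFRSF1B with ML-792 in HCT116 (8 of 15, 0.0606 to 0.139), TNFSF18 with ML-792 in HCT116 (4 of 14, 0.0687 to 0.110), TNFSF13B with TAK-981 in Colo205 (4 of 15, 0.0579 to 0.150), TNFRSF9 with TAK-981 in MDA-MB-231 (4 of 15, 0.0509 to 0.0788) and TNFRSF6B with TAK-981 in MDA-MB-231 (with the read-through gene summed, 0.798). The other 26 called member results gave 384 values, of which 342 kept the call, 42 lost it and 0 reversed. The losses belonged to 10 results: TNFSF9 in HCT116 (8 of 15 with TAK-981, 2 of 15 with ML-792), TNFRSF11A in MDA-MB-231 (8 of 15 with TAK-981, 8 of 15 with ML-792), TNFRSF10A with TAK-981 in THP-1 (6 of 13), TNFRSF1A with ML-792 in HCT116 (6 of 15), TNFRSF10B with TAK-981 in HCT116 and in MDA-MB-231 (1 of 15 each), and TNFSF12 (1 of 14) and TNFRSF6B (1 of 14) with ML-792 in MDA-MB-231. Leaving out 1 library moved the count of members called with ML-792 in HCT116 to between 2 and 4, against 5 with all libraries, and the count of all genes to 768 without ML-792 replicate 2. Between TAK-981 and ML-792 in Colo205 it ranged from 0 to 6 (6 without ML-792 replicate 2, with 943 genes called), against 0, and the replicate block gave 4. No other count of members moved by over 1.5 times. With the block the counts were 5 and 4 in HCT116 (TAK-981 and ML-792), 17 and 13 in Colo205, and 9 and 11 in MDA-MB-231. The threshold of 0.1 in all 3 pairs was not met in HCT116, between TAK-981 and DMSO in Colo205, or between ML-792 and either other group in MDA-MB-231. For TAK-981 and DMSO in Colo205 the correlations were 0.161, 0.176 and 0.0812, so pairing there is not excluded. With the block, TAK-981 was also called higher there for TNFRSF21 (0.29, adjusted p = 0.000519), TNFRSF10B (0.20, adjusted p = 0.0147), TNFRSF12A (0.18, adjusted p = 0.0196) and TNFRSF13C (1.31, adjusted p = 0.0266). Members under about 1 CPM rest on few counts, and changes there were detectable only when large. The cause of the lost calls was not tested.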

Other observations

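Some members below the filter of a line still had values in it. TNFRSF13C averaged 0.186 ± 0.0804 CPM with TAK-981 and 0.681 ± 0.134 CPM with DMSO in THP-1 (SD, n = 3), with 0.102 to 0.262 CPM against 0.568 to 0.828 CPM by library. It was not tested against DMSO there. In the fit of all libraries its TAK-981 response in THP-1 was below that in Colo205 (-3.06 ± 0.70, SE, adjusted p = 0.000462) and HCT116 (-1.95 ± 0.60, adjusted p = 0.00722). TNFRSF18 averaged 0.220 ± 0.0651 CPM with TAK-981 and 0.0189 ± 0.0328 CPM with DMSO in THP-1, where it was not tested against DMSO either. Its response in THP-1 exceeded that in HCT116 (3.25 ± 1.11, adjusted p = 0.015). TNFRSF8 (CD30) averaged 0.356 ± 0.146 CPM with TAK-981 and 0.192 ± 0.141 CPM with DMSO in THP-1, the highest level of any of the 5 members that stayed below 1 CPM. These values are near the level of a few counts.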
